A study of Mus musculus with 64 samples.

Results

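D1Mit113 is a microsatellite marker on distal mouse chromosome 1, placed at 93.3 cM in the deposited genotype table. The F2 male mice of an intercross of C57BL/6J (B6) and TALLYHO/JngJ (TH) mice were grouped by their genotype at this marker. Of 393 mice, all were typed: 82 were homozygous for the TH allele (TH/TH), 96 were homozygous for the B6 allele (B6/B6) and the rest were heterozygous (B6/TH). These numbers did not depart from 1:2:1 (chi-square test, p = 0.106). All mice were fed standard chow, with no treatment, and each carried a random mixture of both genomes at all other loci. A marker genotype therefore stands for a stretch of chromosome and not for a gene, and no female mice were measured. Plasma was taken after a 4-hour fast at 5 ages 4 weeks apart, the first at 8 and the last at 24 weeks, and fat pads, brown fat and carcass were weighed after the last. The table held 39 traits, each with a value in 365 to 385 mice. Mice without a triglyceride value at 24 weeks numbered 3 TH/TH, 8 B6/TH and 7 B6/B6 (Fisher's exact test between homozygotes, two-sided, p = 0.345).

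In fasted mice, plasma triglyceride is carried mostly by very low density lipoproteins made in the liver, whereas most plasma cholesterol is in high density lipoproteins. Free fatty acids are released from adipose tissue by lipolysis, which insulin restrains. The gene of apolipoprotein A-II, a structural protein of high density lipoprotein, lies on distal chromosome 1, but neither its sequence nor its level was analysed here.

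TH/TH mice had more cholesterol and triglyceride in plasma than B6/B6 mice at all 5 ages, were heavier at all 5 ages and had heavier brown fat and heavier fat pads at 4 of the 5 sites. Their plasma glucose did not differ detectably at any age. Of the 39 traits, 23 were higher in TH/TH mice (59.0% of the traits), 0 were lower, and 16 did not pass an adjusted p of 0.05 (two-sided permutation test with 100000 resamples, Benjamini-Hochberg adjustment over the 39 traits; 25 traits at an unadjusted p under 0.05). The 23 traits were the 5 values each of triglyceride, cholesterol and body weight, the weight at death, the inguinal, epididymal, mesenteric and subscapular pads, the sum of the pads, brown fat, and insulin at 12 weeks. B6/TH mice lay between the homozygous means in all of these 23 traits and in 30 of the 39. The 95% interval of the dominance effect, the distance of B6/TH mice from the midpoint of the homozygous means, included 0 in all 39 traits. The plot of differences in SD units has cholesterol at 20 weeks farthest to the right, at 1.02 SD, followed by cholesterol at 16 weeks at 0.914 SD.

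**Figure D1:**
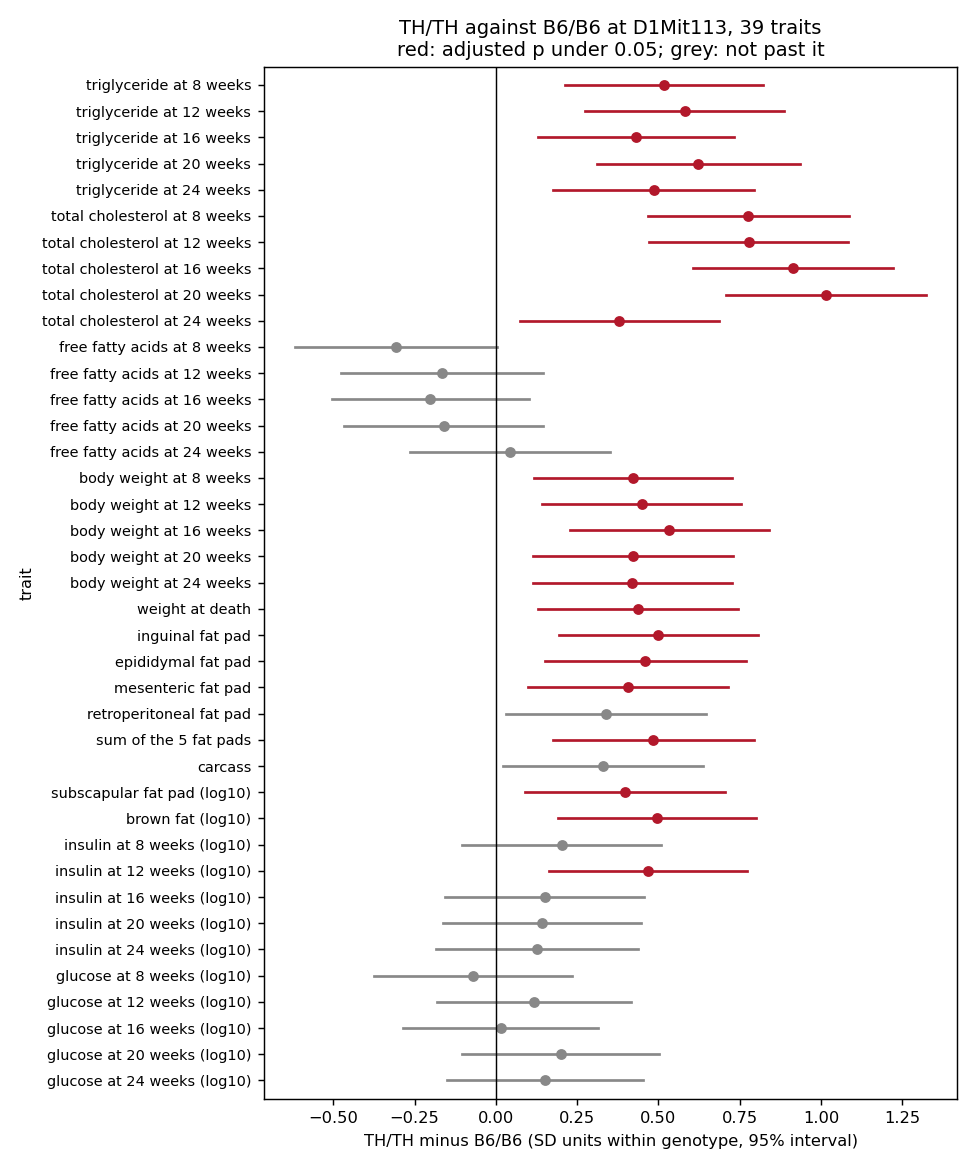
TH/TH minus B6/B6 mice at D1Mit113 for the 39 traits (rows), in units of the SD within genotype, with 95% intervals (bars). Red marks the 23 traits with an adjusted p under 0.05 and grey the other 16; cholesterol at 20 weeks lies at 1.02 SD, and 4 of the 5 points for free fatty acids lie left of 0.

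In SD units total cholesterol carried the 4 largest differences of the 39 traits, at 8 to 20 weeks. At 12 weeks it ran from 0.77 to 7.71 mmol/l with a median of 3.60 in TH/TH mice, from 0.66 to 8.54 with a median of 3.24 in B6/TH mice, and from 0.39 to 6.44 with a median of 2.56 in B6/B6 mice. The ranges overlapped almost wholly, and the medians were ordered by the number of TH alleles. At 16 weeks the lowest, median and highest values were 0.98, 3.44 and 6.74 mmol/l in TH/TH mice, 1.17, 3.02 and 6.82 in B6/TH mice, and 1.26, 2.46 and 5.21 in B6/B6 mice. At this age 70 of 80 TH/TH mice lay above the B6/B6 median and 38 lay above the 90th percentile of B6/B6 mice. The means at 16 weeks were 3.48 ± 0.122 mmol/l in TH/TH mice (mean ± SEM, n = 80) and 2.61 ± 0.0857 in B6/B6 mice (n = 92), a difference of 0.873 mmol/l (95% interval 0.579 to 1.17, permutation test, adjusted p = 9.75e-05). This adjusted p rests on the smallest p that the resamples can give, 1e-05, which cholesterol at 8, 12 and 20 weeks had too.

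At 24 weeks the cholesterol difference was 0.452 mmol/l (95% interval 0.0872 to 0.817, permutation test, adjusted p = 0.0253). This call was lost in the mice with a value for every trait (adjusted p = 0.0719, permutation test). It was also lost within genotypes of D1Mit215, another marker of chromosome 1 (adjusted p = 0.0931), and with adjustment over all markers (adjusted p = 0.159, permutation tests). The values ran from 1.35 to 8.06 mmol/l with a median of 3.25 in TH/TH mice, from 1.35 to 8.11 with a median of 3.02 in B6/TH mice, and from 1.25 to 6.51 with a median of 2.75 in B6/B6 mice. Mean cholesterol at 24 weeks was 3.53 ± 0.139 mmol/l in TH/TH mice (n = 79) and 3.08 ± 0.121 in B6/B6 mice (n = 89). B6/B6 mice were at their highest mean of the 5 ages then, while TH/TH mice had theirs at 20 weeks, at 3.86 mmol/l. In mice measured at all 5 ages the difference at 24 weeks was smaller than the mean difference at the other ages by 0.393 mmol/l, with an interval that included 0 (-0.828 to 0.04205, permutation test, p = 0.0750, adjusted p = 0.487 over 30 comparisons of an age with the other ages). A weaker effect at 24 weeks was thus not shown.

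**Figure D2:**
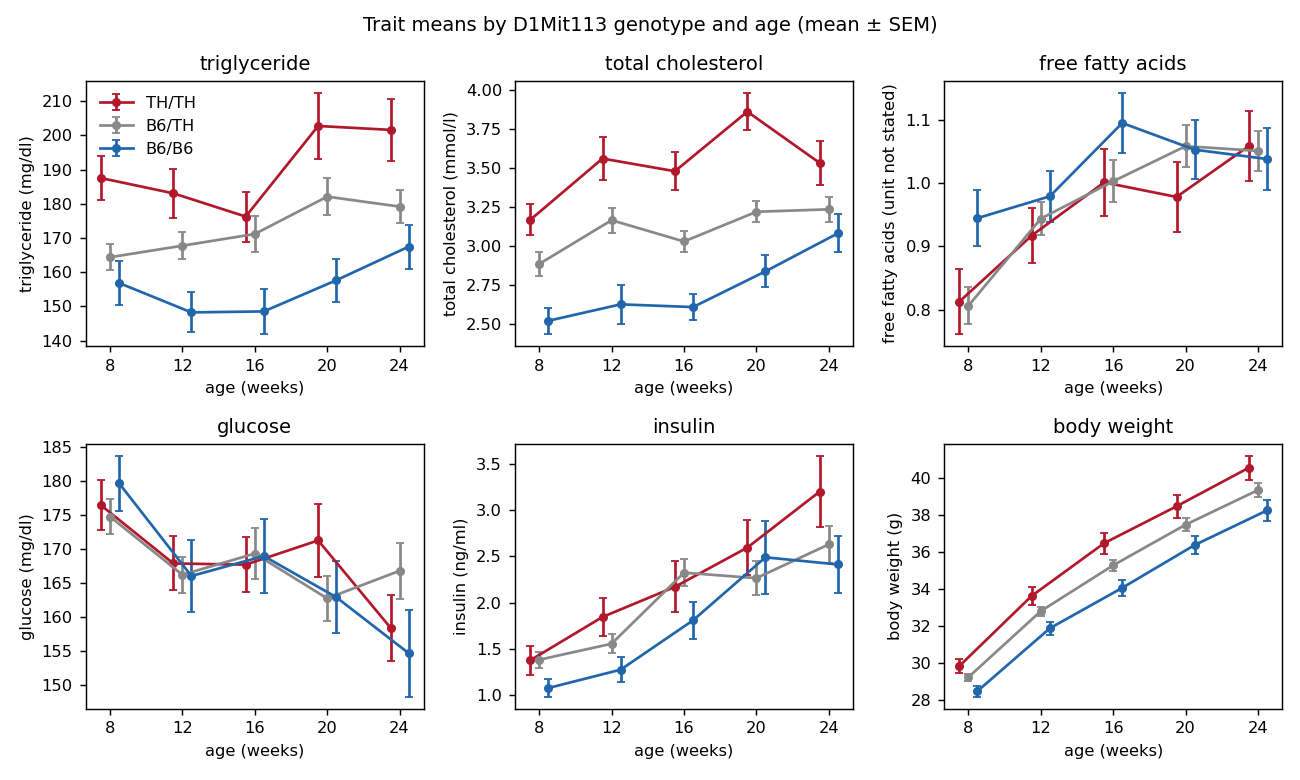
Mean ± SEM of the 6 traits measured repeatedly (panels, each with its own vertical axis, not starting at 0) against age in weeks, in TH/TH, B6/TH and B6/B6 mice at D1Mit113; points are moved sideways slightly for clarity. Cholesterol, triglyceride and body weight are ordered TH/TH, B6/TH, B6/B6 at each of the 5 ages, while the glucose lines cross.

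Averaged over the 5 ages of each mouse, cholesterol was 3.55 ± 0.0632 mmol/l in TH/TH mice (n = 73), 3.11 ± 0.0351 in B6/TH mice (n = 192) and 2.74 ± 0.0567 in B6/B6 mice (n = 81). The lowest, median and highest mouse means were 2.26, 3.52 and 5.24 mmol/l in TH/TH mice, 1.98, 3.09 and 4.34 in B6/TH mice, and 1.70, 2.74 and 4.96 in B6/B6 mice. The ranges between the quartiles of the homozygous groups did not overlap, since the lower quartile was 3.32 mmol/l in TH/TH mice and the upper quartile 3.01 in B6/B6 mice. TH/TH mice exceeded B6/B6 mice by 0.813 mmol/l, or 29.7% (95% interval 0.645 to 0.981, permutation test, adjusted p = 6e-05 over 6 traits). Above the B6/B6 median were 67 of 73 TH/TH mice (91.8%) and 79.2% of the 192 B6/TH mice.

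The allele count at D1Mit113 explained 22.5% of the variance of the mean over ages (n = 345), whereas genotype explained 4.96%, 6.76%, 8.62%, 11.1% and 1.69% of the variance at the single ages, in order of age. The SD within genotype was smaller for the mean over ages, at 0.540 mmol/l in TH/TH and 0.510 in B6/B6 mice, than at 16 weeks, at 1.09 and 0.822. Single mice changed their rank between ages. Cholesterol was above the median of all F2 mice at 4 or 5 of the ages in 37 of 73 TH/TH mice (50.7%), 41 of 192 B6/TH mice (21.4%) and 3 of 81 B6/B6 mice (3.70%). It was above that median at no age in 0 TH/TH, 9 B6/TH and 12 B6/B6 mice.

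**Figure D3:**
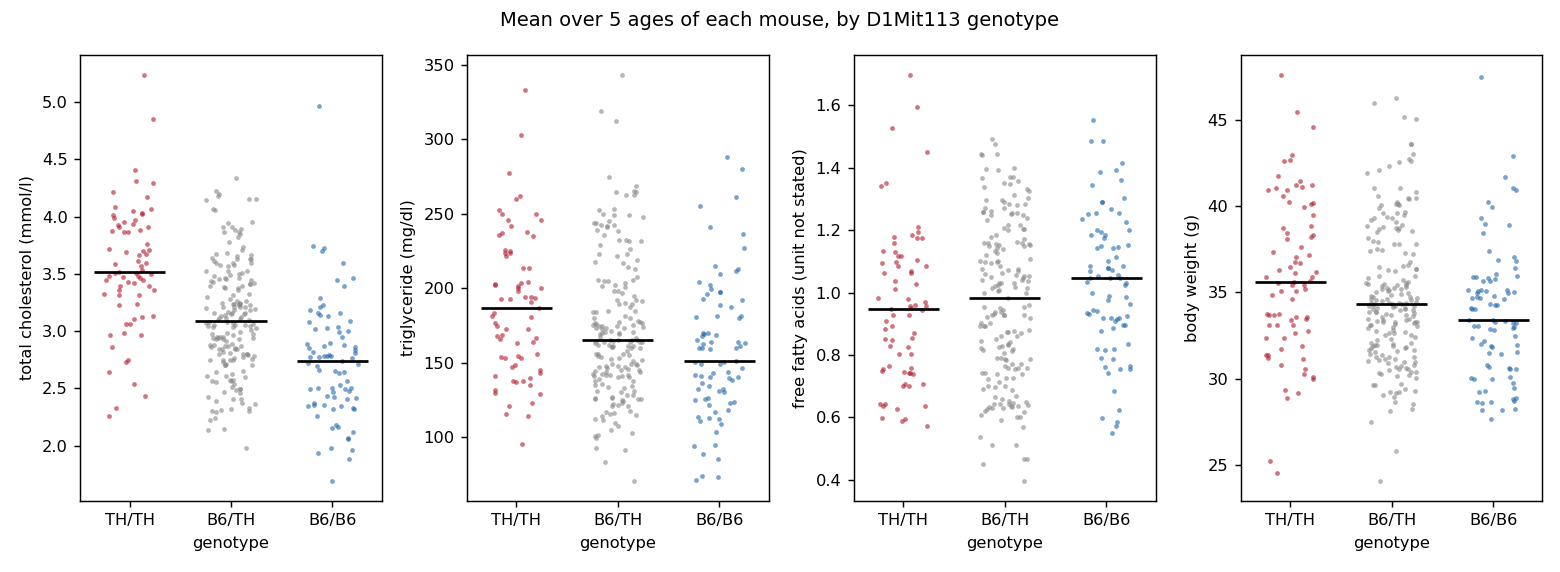
Mean over 5 ages of each mouse (points) for cholesterol, triglyceride, free fatty acids and body weight in TH/TH, B6/TH and B6/B6 mice at D1Mit113; black lines are medians and the vertical axes do not start at 0. The cholesterol medians are 3.52, 3.09 and 2.74 mmol/l, the order of free fatty acids is the opposite one, and the points of the genotypes overlap in every panel.

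Plasma triglyceride was higher in TH/TH mice by 18.7% to 28.6% at the 5 ages. At 20 weeks, where the difference was largest, triglyceride ran from 58.6 to 440 mg/dl with a median of 198 in TH/TH mice, from 56.3 to 479 with a median of 164 in B6/TH mice, and from 60.9 to 318 with a median of 148.2 in B6/B6 mice. The groups overlapped from the lowest values up, and the upper end was longer in TH/TH mice, of which 22 of 79 were above the 90th percentile of B6/B6 mice. The means were 203 ± 9.62 mg/dl in TH/TH and 158 ± 6.21 in B6/B6 mice, a difference of 45.1 mg/dl (95% interval 22.5 to 67.8, permutation test, adjusted p = 0.000468). The differences at 8, 12, 16 and 24 weeks were 30.7, 34.8, 27.7 and 34.1 mg/dl (adjusted p = 0.00483, 0.00163, 0.0123 and 0.00635, permutation test). Within genotypes of D1Mit215 the calls at 12 and 16 weeks were lost (adjusted p = 0.0685 and 0.169, permutation tests). In the mice with a value for every trait the call at 24 weeks was lost (adjusted p = 0.108, permutation test). At 16 weeks B6/TH mice, at 171 ± 5.20 mg/dl, were nearer to TH/TH mice, at 176 ± 7.32, than to B6/B6 mice, at 149 ± 6.61, with a dominance effect of 8.77 mg/dl whose interval included 0 (-5.55 to 23.1).

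Averaged over ages, triglyceride was 188 ± 5.56 mg/dl in TH/TH mice (n = 73), 173 ± 3.43 in B6/TH mice (n = 192) and 158 ± 5.11 in B6/B6 mice (n = 81). Mouse means ran from 95.5 to 333 mg/dl with a median of 187 in TH/TH mice, and from 71.6 to 288 with a median of 151 in B6/B6 mice. TH/TH mice exceeded B6/B6 mice by 29.95 mg/dl, or 18.9% (95% interval 15.03 to 44.9, permutation test, adjusted p = 0.0003). The allele count explained 4.32% of the variance of this mean. Triglyceride was above the F2 median at all 5 ages in 16 of 73 TH/TH, 25 of 192 B6/TH and 8 of 81 B6/B6 mice.

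The 2 lipids did not move together closely within a genotype. Of 15 correlations of triglyceride with cholesterol, 1 for each genotype and age, that in B6/TH mice at 8 weeks passed by both measures (Pearson r = 0.283, adjusted p = 0.00165; Spearman rho = 0.360, adjusted p = 0.00015; permutation tests, n = 200; r = 0.298 without the 2 mice farthest from the median triglyceride). In B6/TH mice at 16 weeks Pearson r was 0.191 (adjusted p = 0.0414; r = 0.189 without the 2 farthest mice) and Spearman rho 0.165 (adjusted p = 0.0814, permutation tests). In TH/TH mice Pearson r ran between -0.0622 and 0.198 and in B6/B6 mice between -0.00404 and 0.242, and none passed the adjustment. The ratio of triglyceride to cholesterol at an age did not pass the threshold either, the lowest p being at 12 weeks, with 59.5 ± 3.94 mg/dl per mmol/l in TH/TH mice and 79.1 ± 7.77 in B6/B6 mice (permutation test, adjusted p = 0.161 over 12 derived traits).

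Free fatty acids, whose unit is not stated, ran opposite to the other lipids. At 8 weeks they ran from 0.19 to 2.17 with a median of 0.70 in TH/TH mice, from 0.09 to 2.63 with a median of 0.75 in B6/TH mice, and from 0.21 to 1.87 with a median of 0.91 in B6/B6 mice. The medians of TH/TH and B6/TH mice were close to each other and below that of B6/B6 mice, with full overlap of the ranges. The means at 8 weeks were 0.813 ± 0.0511 in TH/TH and 0.945 ± 0.0437 in B6/B6 mice, a difference of -0.132 that missed the threshold (95% interval -0.264 to 0.00119, permutation test, adjusted p = 0.0764). At 12, 16 and 20 weeks the differences were -0.0618, -0.0936 and -0.0745, and at 24 weeks 0.0206, all with intervals that included 0. Averaged over ages, free fatty acids were 0.954 ± 0.0292 in TH/TH mice (n = 71), 0.971 ± 0.0185 in B6/TH mice (n = 189) and 1.03 ± 0.0252 in B6/B6 mice (n = 80). The difference was -0.0801, or -7.75% (95% interval -0.156 to -0.00382, permutation test, adjusted p = 0.0465), with 25 of 71 TH/TH mice above the B6/B6 median. This call was lost with the TH allele count over all genotypes (adjusted p = 0.0517), with body weight as a covariate (adjusted p = 0.0999) and within genotypes of D1Mit215 (adjusted p = 0.286, permutation tests).

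TH/TH mice were heavier throughout. At 8 weeks body weight ran from 20.9 to 39.1 g with a median of 29.4 g in TH/TH mice, from 22.2 to 39.6 g with a median of 29.1 g in B6/TH mice, and from 22.4 to 39.8 g with a median of 28.5 g in B6/B6 mice. The groups overlapped over nearly their whole ranges. The means at 8 weeks were 29.8 ± 0.396 g in TH/TH and 28.5 ± 0.304 g in B6/B6 mice, and those at 24 weeks 40.6 ± 0.644 g in TH/TH and 38.2 ± 0.565 g in B6/B6 mice, with differences of 1.36 g (95% interval 0.373 to 2.34, adjusted p = 0.0140) and 2.31 g (0.621 to 4.01, adjusted p = 0.0143, permutation tests). The call at 24 weeks was lost in the mice with a value for every trait (adjusted p = 0.0719, permutation test). The weight gain between 8 and 24 weeks, 10.7 ± 0.450 g in TH/TH and 9.76 ± 0.398 g in B6/B6 mice, was not distinguishable (difference 0.898 g, 95% interval -0.288 to 2.08, permutation test, adjusted p = 0.235). Averaged over ages, TH/TH mice weighed 35.9 ± 0.509 g (n = 79) and B6/B6 mice 33.8 ± 0.401 g (n = 88), a difference of 2.11 g (95% interval 0.827 to 3.39, permutation test, adjusted p = 0.00266). Within genotypes of D1Mit215, another marker of chromosome 1, it was 1.46 g (adjusted p = 0.0657, permutation test).

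Of the 30 comparisons of an age with the other ages, 1 passed the adjustment (3.33%; 3 at an unadjusted p under 0.05), and it concerned body weight. In the 79 TH/TH and 88 B6/B6 mice weighed at all ages, the difference was 2.64 g at 16 weeks and 1.97 g on average at the others. It was thus 0.662 g larger at 16 weeks (95% interval 0.309 to 1.01, permutation test, adjusted p = 0.0084). At 8, 12, 20 and 24 weeks the difference was 1.42, 1.85, 2.32 and 2.31 g. None of the 6 slopes over age differed between TH/TH and B6/B6 mice (permutation test, adjusted p under 0.05 in 0 of 6, and an unadjusted p under 0.05 in 0 of 6).

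The inguinal, epididymal, mesenteric and subscapular pads and brown fat were heavier in TH/TH mice, while the retroperitoneal pad lay at the threshold. The inguinal pad, a subcutaneous depot, ran from 0.07 to 2.22 g with a median of 1.14 g in TH/TH mice, from 0.16 to 2.60 g with a median of 0.95 g in B6/TH mice, and from 0.18 to 2.66 g with a median of 0.765 g in B6/B6 mice. Of 79 TH/TH mice, 61 lay above the B6/B6 median, though the extremes of the genotypes were close to each other. Its means were 1.11 ± 0.0563 g in TH/TH and 0.866 ± 0.04999 g in B6/B6 mice, a difference of 0.242 g (95% interval 0.0935 to 0.391, permutation test, adjusted p = 0.00635). The epididymal pad, the gonadal depot and the heaviest, ran from 0.20 to 3.21 g with a median of 1.62 g in TH/TH mice, from 0.19 to 2.84 g with a median of 1.34 g in B6/TH mice, and from 0.24 to 2.52 g with a median of 1.31 g in B6/B6 mice. B6/TH mice were close to B6/B6 mice here, and the difference between the homozygotes was 0.287 g (95% interval 0.0937 to 0.480, permutation test, adjusted p = 0.00941). The epididymal call was lost on the log10 scale (adjusted p = 0.0965) and in the mice with a value for every trait (adjusted p = 0.0512, permutation tests).

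The mesenteric pad, which drains to the portal vein, weighed 0.428 ± 0.0237 g in TH/TH and 0.347 ± 0.0198 g in B6/B6 mice (adjusted p = 0.0177), and the subscapular pad 0.544 ± 0.0309 g in TH/TH and 0.421 ± 0.0273 g in B6/B6 mice (adjusted p = 0.0216 on the log10 scale, permutation tests). In the mice with a value for every trait both calls were lost (adjusted p = 0.0937 for the mesenteric and 0.0910 for the subscapular pad, permutation tests). The retroperitoneal pad weighed 0.456 ± 0.0240 g in TH/TH and 0.386 ± 0.0215 g in B6/B6 mice. Its difference of 0.0701 g had an adjusted p of 0.0506, and of 0.0488 in a second draw of the resamples, so that its place relative to the threshold lies within resampling error and the count of traits higher in TH/TH mice is 23 in the first draw and 24 in the second (permutation test). The 5 pads together ran from 0.61 to 7.99 g with a median of 4.31 g in TH/TH mice, from 0.52 to 8.59 g with a median of 3.58 g in B6/TH mice, and from 0.64 to 8.30 g with a median of 3.22 g in B6/B6 mice. Their mean was 4.13 ± 0.198 g in TH/TH and 3.32 ± 0.168 g in B6/B6 mice, a difference of 0.808 g or 24.3% (95% interval 0.295 to 1.32, permutation test, adjusted p = 0.00670).

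Relative to body weight the pads made up 9.83 ± 0.389% in TH/TH and 8.36 ± 0.325% in B6/B6 mice (95% interval of the difference 0.468 to 2.47, permutation test, adjusted p = 0.0476). This was the only one of the 12 derived traits past the threshold (8.33%). The share of a single pad in the sum of the pads did not pass it for any of the 5 pads, with adjusted p between 0.161 and 0.839 (permutation test). The carcass, which the authors define as body weight without the 5 fat pads, weighed 34.1 ± 0.477 g in TH/TH and 32.8 ± 0.416 g in B6/B6 mice. In both groups this mean lay below the mean weight at 24 weeks, or at death, less the mean pad sum. The deposited carcass is therefore not exactly that subtraction. The carcass difference of 1.34 g between TH/TH and B6/B6 mice missed the threshold (95% interval 0.0906 to 2.59, permutation test, adjusted p = 0.0543). Glucose reached 300 mg/dl or more at any age in 14 mice, of which 8 were B6/TH and outside this comparison. Leaving these mice out took the TH/TH and B6/B6 mice compared from 167 to 161. The carcass difference was then 1.57 g and passed the threshold (adjusted p = 0.0214, permutation test).

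Brown fat, the depot that produces heat, ran from 0.06 to 0.47 with a median of 0.25 in TH/TH mice, from 0.04 to 0.61 with a median of 0.195 in B6/TH mice, and from 0.05 to 0.80 with a median of 0.18 in B6/B6 mice (unit not stated). Of 79 TH/TH mice, 60 lay above the B6/B6 median, although the highest value was in a B6/B6 mouse. On the log10 scale TH/TH mice were higher by 25.7% (difference 0.0992, 95% interval 0.0380 to 0.160, permutation test, adjusted p = 0.00635).

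Insulin rose in TH/TH mice relative to B6/B6 mice at 12 weeks only among the single ages tested. It ran from 0.22 to 11.8 ng/ml with a median of 1.43 in TH/TH mice, from 0.07 to 12.4 with a median of 1.18 in B6/TH mice, and from 0.06 to 9.26 with a median of 0.965 in B6/B6 mice. TH/TH mice were higher by 46.6% in geometric mean (difference 0.166 on the log10 scale, 95% interval 0.0580 to 0.274, permutation test, adjusted p = 0.00837). At 8, 16, 20 and 24 weeks they were higher by 16.9%, 16.1%, 16.7% and 13.9%, with intervals that included 0. The difference at 12 weeks did not differ from that at the other ages after adjustment (0.123 on the log10 scale, 95% interval 0.0149 to 0.231, permutation test, adjusted p = 0.265), so an effect at 12 weeks alone was not shown. Over all ages the geometric mean was 1.45 ng/ml in TH/TH and 1.15 ng/ml in B6/B6 mice, a difference of 25.7% (permutation test, adjusted p = 0.0179), which was lost with body weight as a covariate (adjusted p = 0.169) and within genotypes of D1Mit215 (adjusted p = 0.286, permutation tests).

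Glucose did not pass the threshold at any age. At 24 weeks it ran from 61.8 to 294 mg/dl with a median of 158 in TH/TH mice, from 63.4 to 599 with a median of 163 in B6/TH mice, and from 39.7 to 533 with a median of 147.9 in B6/B6 mice. The highest values lay outside the TH/TH group at this age. Over all ages the geometric mean was 164 mg/dl in TH/TH and 159 mg/dl in B6/B6 mice, and the difference of 0.0133 on the log10 scale had a 95% interval of -0.0114 to 0.0380 (permutation test, adjusted p = 0.303). Glucose of 300 mg/dl or more at any age occurred in 2 TH/TH, 8 B6/TH and 4 B6/B6 mice (Fisher's exact test between homozygotes, two-sided, p = 0.688).

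Neighbouring markers of chromosome 1 share much of this genotype. D1Mit206, at 95.8 cM, had the same genotype as D1Mit113 in 353 of 392 mice (90.1%), while D1Mit26 at 62.1 cM had it in 225 of 393, D1Mit215 at 47 cM in 202 of 393 and D1Mit213 at 25.7 cM in 45.4%. In a least squares fit of all 5 markers, D1Mit113 had an effect on mean cholesterol of 0.309 mmol/l for each TH allele (95% interval 0.154 to 0.463). For the marker alone it was 0.405 (0.326 to 0.485). In the fit of all 5 markers D1Mit215 had an effect of 0.192 mmol/l (0.0653 to 0.319). That of D1Mit206, 0.105, had an interval including 0 (-0.0405 to 0.2503). That of D1Mit26 was -0.117 (-0.233 to -0.000743), opposite in sign to its effect as a marker alone, 0.178 (0.0931 to 0.263). As markers alone, D1Mit215 and D1Mit206 had effects of 0.210 and 0.371 mmol/l. For mean triglyceride the joint effects at D1Mit113, 6.73 mg/dl (-7.92 to 21.4), and at D1Mit206, 8.61 mg/dl (-5.20 to 22.4), could not be told apart.

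**Figure D4:**
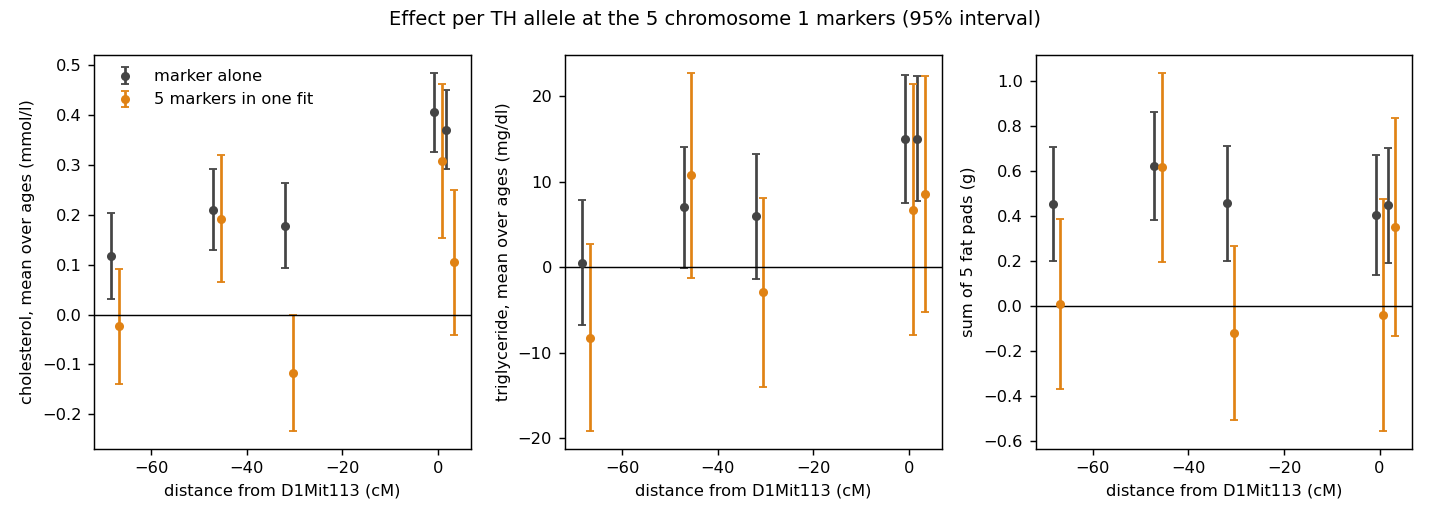
Effect for each TH allele (points, 95% intervals as bars) at the 5 markers of chromosome 1 against the distance from D1Mit113 in cM, for mean cholesterol, mean triglyceride and the sum of the 5 fat pads; dark points are fits of a marker alone and orange points a fit of all 5, moved sideways slightly. For cholesterol the effect in the joint fit is 0.309 mmol/l at D1Mit113, whereas for the fat pads it is -0.0386 g there and 0.618 g at D1Mit215.

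For the sum of the fat pads and for brown fat, only D1Mit215 had a joint effect whose interval left out 0. Single pads were not fitted with all 5 markers. For the sum of the fat pads the joint effect was -0.0386 g at D1Mit113 (95% interval -0.555 to 0.478), against 0.404 g (0.139 to 0.669) for the marker alone, and 0.618 g at D1Mit215 (0.197 to 1.04). At D1Mit206 it was 0.351 g (-0.135 to 0.838), so the effects of D1Mit113 and D1Mit206 could not be told apart. For brown fat it was -0.0125 on the log10 scale at D1Mit113 (-0.0695 to 0.0445), 0.0517 at D1Mit206 (-0.00198 to 0.105) and 0.0919 at D1Mit215 (0.0455 to 0.138). For mean body weight it was 0.241 g at D1Mit113 (-0.977 to 1.46), and the intervals of all 5 markers included 0. When TH/TH and B6/B6 mice were compared within genotypes of D1Mit215, 0 of the 14 traits of weight, pads, carcass and brown fat passed the threshold, against 12 without this restriction, and of all 39 traits 7 did: triglyceride at 8, 20 and 24 weeks and cholesterol at 8, 12, 16 and 20 weeks (permutation test). The sum of the pads was then higher in TH/TH mice by 0.568 g, against 0.808 g without the restriction (adjusted p = 0.138), body weight at 16 weeks by 1.58 g, against 2.42 g (adjusted p = 0.109), and brown fat by 0.0518 on the log10 scale, against 0.0992 (adjusted p = 0.204, permutation tests). These differences were smaller and kept their direction, and were not shown to be absent. The differences in mean cholesterol and triglyceride were then 0.710 mmol/l (adjusted p = 6e-05) and 21.9 mg/dl (adjusted p = 0.0281, permutation test). For glucose the joint effects at the neighbouring markers were opposite, -0.0302 on the log10 scale at D1Mit113 (-0.0542 to -0.00623) and 0.0394 at D1Mit206 (0.0167 to 0.0620). These 2 markers had the same genotype in 353 of 392 mice, and the cause of the opposite signs was not tested. As markers alone, the effects were 0.00664 at D1Mit113 (-0.00587 to 0.0191), 0.0172 at D1Mit206 (0.0051 to 0.0293) and 0.0142 at D1Mit215 (0.00272 to 0.0258).

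Where D1Mit113 and D1Mit206 differed, mean cholesterol was 3.40 ± 0.251 mmol/l in the 4 mice TH/TH at D1Mit113 and B6/TH at D1Mit206. It was 3.56 ± 0.0665 in the 68 that were TH/TH at both. It was 2.65 ± 0.0969 mmol/l in the 8 mice that were B6/B6 at D1Mit113 and B6/TH at D1Mit206, and 2.74 ± 0.0638 in the 70 that were B6/B6 at both. The 3 mice that were B6/B6 at D1Mit113 but TH/TH at D1Mit206 had a mean of 2.88 ± 0.289 mmol/l, and the 7 that were B6/TH at D1Mit113 and TH/TH at D1Mit206 had 3.49 ± 0.218. The 13 mice that were B6/TH at D1Mit113 and B6/B6 at D1Mit206 had 2.96 ± 0.146 mmol/l. Mice that were B6/TH at both had 3.11 ± 0.0362 mmol/l (n = 172). The groups that differ between the 2 markers are too small to place the effect between them.

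Effects at D1Mit113 were also read against 3 lipid markers on other chromosomes. At D4Mit178, mean triglyceride of mice homozygous for TH at D1Mit113 was 193.2 ± 11.65 mg/dl with TH/TH, 187 ± 7.45 with B6/TH and 184 ± 11.3 with B6/B6 at D4Mit178. In mice B6/B6 at D1Mit113 it was 184 ± 10.7, 158 ± 6.73 and 137 ± 9.11 mg/dl in the same order of D4Mit178 genotypes. The product of the allele counts had an effect of -9.72 mg/dl with an interval that included 0 (-20.4 to 0.946, permutation test, p = 0.0732, adjusted p = 0.220), so a dependence of one locus on the other was not shown. The products with D8Mit242 for triglyceride (-5.73 mg/dl, -16.9 to 5.40) and with D3Mit304 for cholesterol (0.04825 mmol/l, -0.0589 to 0.155) each had an adjusted p of 0.374 (permutation test).

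Set against the 68 markers of the table, D1Mit113 was the second by the number of traits called within a marker, with 23 of 39. D1Mit206 had 29, and D1Mit215 and D11Mit86 on chromosome 11 had 20 each. At the 63 markers of other chromosomes 4.4% of the combinations of trait and marker were called, 3.13% as higher in TH/TH mice, and 42 of these markers had none. At the other 4 markers of chromosome 1 the share was 50.0%. With the adjustment made over all 2652 combinations, 118 were called (4.45%), of which 12 were at D1Mit113 (30.8% of its traits): cholesterol at 8 to 20 weeks, triglyceride at 8, 12, 20 and 24 weeks, body weight at 16 weeks, the inguinal pad, the sum of the pads and brown fat. By this count D1Mit206 had 17, D1Mit215 had 14 and D11Mit86 had 12, so that D1Mit113 and D11Mit86 shared rank 3. At the markers of other chromosomes 2.44% of the combinations were called.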

How the data were processed

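The authors deposited 1 table of the traits and marker genotypes of 393 male F2 mice, whose values are other than counts or intensities. Weights are in g, insulin is given as ng/ml, cholesterol as mmol/l, and both triglyceride and glucose as mg/dl, measured by the authors with commercial kits and by weighing; the units of free fatty acids and brown fat are not stated. The table has no mouse number, so the deposited expression arrays could not be tied to a genotype and were not used. Also unused were 12 columns of logs. Samples of the series are arrays and have no part in the comparisons. Each mouse is 1 replicate.

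TH/TH and B6/B6 mice were compared by the difference of means, with a two-sided permutation test (100000 resamples; the smallest p possible is 1e-05) and Benjamini-Hochberg adjustment over 39 traits at 0.05. Insulin, glucose, subscapular pad and brown fat were taken as log10; 1 insulin value of 0 was left out there, and 1 free fatty acid value of -0.01 was kept. Intervals are 95% by Welch's formula for differences and by least squares for allele and dominance effects. Means over ages used mice with all 5 values. In 6 mice the pads summed to over 0.02 g from the deposited total (largest gap 0.16 g), which was used. All 39 traits were described, with all those past the threshold named. The marker, traits and tests were chosen with earlier results of these data known. On simulated traits of these mice, p was under 0.05 in 5% of 200 with no shift, 32% with a shift of 0.25 SD and 90.5% with 0.5 SD. Alternatives were log10 of every trait or of none, ranks, the allele count, mice without glucose of 300 mg/dl or more, mice with every trait, body weight at 24 weeks as covariate, strata of D1Mit215, ages scaled to SD 1 and adjustment over all markers. Body weight as covariate left out the traits of weight. Its adjustment was over the plasma traits only, for single ages and for means over ages alike. A second draw of the resamples was added after the data were seen. Tools were matplotlib 3.10.9, pandas 2.3.3, scipy 1.17.1, numpy 2.4.6 and Python 3.11.15.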

Additional observations from a re-analysis of the deposited data

Results flagged for a closer look

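The difference in body weight between TH/TH and B6/B6 mice at D1Mit113 changed with age by a direct test. It was 0.662 g larger at 16 weeks than on average at the other 4 ages in the same mice (permutation test, adjusted p = 0.0084 over 30 comparisons). It was also the only one of the 30 to pass when each age was scaled to SD 1 and when mice whose glucose reached 300 mg/dl were left out. At 16 weeks TH/TH mice weighed 36.5 ± 0.567 g (mean ± SEM, n = 80) and B6/B6 mice 34.1 ± 0.418 g (n = 92). In the mice weighed at all ages the difference was 1.42, 1.85, 2.64, 2.32 and 2.31 g, in order of age. The age of 16 weeks was not tested against 20 or 24 weeks alone. The slope of body weight over age was not shown to differ (0.227 g per 4 weeks, permutation test, p = 0.143).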

How the results depend on the processing

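Mean triglyceride and cholesterol over the ages kept their direction and side of the threshold under every alternative run, and no called result reversed. Of the 39 traits, those higher in TH/TH mice numbered 16 in mice with a value for every trait, 22 with log10 of every trait, 7 within genotypes of D1Mit215 and 12 with adjustment over all markers, against 23; the traits of weight, pads, carcass and brown fat then numbered 0 of 14 within genotypes of D1Mit215, with smaller differences in the same direction for the sum of the pads (0.568 against 0.808 g), the inguinal (0.178 against 0.242 g) and mesenteric pads (0.0628 against 0.0806 g). In mice with a value for every trait the calls lost were triglyceride, cholesterol and body weight at 24 weeks, the weight at death (adjusted p = 0.0554, permutation test) and the epididymal, mesenteric and subscapular pads. With log10 of every trait the epididymal call was lost (adjusted p = 0.0965, permutation test). The trait lower in TH/TH mice numbered 1 with log10 of every trait, with ranks and in mice with every trait, each time free fatty acids at 8 weeks, against 0. Mean free fatty acids lost the threshold with the allele count (-0.0408 for each TH allele), within genotypes of D1Mit215 (-0.0508) and with body weight as covariate (-0.0738). Mean insulin lost it within genotypes of D1Mit215 (0.0550) and with body weight as covariate (0.0479 on the log10 scale), and mean body weight within genotypes of D1Mit215 (1.46 g). Triglyceride at 16 weeks lost it with body weight as covariate (adjusted p = 0.0710, permutation test). The cause of these changes was not tested. The retroperitoneal pad crossed the threshold with a change of the draw of the resamples, which made the count 24 in the second draw. It also passed with ranks (adjusted p = 0.0179), and did not with log10 (adjusted p = 0.241, permutation tests). At these numbers a shift of 0.25 SD was found in 32% of simulated traits at an unadjusted p under 0.05. No paired analysis was possible because the groups compared are different mice of the trait table, which carries no replicate numbers.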
